A study of Bombyx mori with 12 samples.

Results

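VMP23 (BGIBMGA006755), a vitelline membrane protein, CBZ (BGIBMGA006415), a chorion b-ZIP transcription factor, and C/EBP (BGIBMGA013687), a factor described in the table as chorion specific, are genes of eggshell formation in Bombyx mori, the domestic silkworm. They were picked by gene ID and make up 3 of the 15745 genes listed. Ovaries were dissected from female pupae labelled WT or TBH at the pupal stages P2 and P4, and their total RNA was sequenced. The series concerns hyperproteinemia, a raised protein level of the blood, and its effect on female reproduction. Of the 4 groups (WT P2, TBH P2, WT P4 and TBH P4), each had 3 samples, and the sources used here spell out neither TBH nor its alleles nor the age in days. The labels speak of 5 dissected female pupae with n = 3, and nothing says which samples came from separate animals, so the tests speak for the spread among these samples, which may be technical.

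In the silkworm ovary, each oocyte grows inside a follicle whose epithelium first lets yolk precursors pass and then turns to secretion. The follicle cells lay down the vitelline membrane, a thin inner coat, and after it the chorion, the layered outer shell. Chorion genes are read from promoters bound by C/EBP-type factors, which are basic leucine zipper (b-ZIP) proteins that bind DNA as dimers, and by the architectural protein HMGA. Follicles along an ovariole pass through these steps one after another as ecdysteroid levels change in the pupa.

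The deposited numbers are normalized expression values with no unit named. The sequencing depth behind them is unknown, so the size of their counting error cannot be given. They summed to between 468558.9 and 664133.6 per sample. WT P2 replicate 2 had the highest sum, the highest share of cytosolic ribosomal protein transcripts (36.8%) and the fewest genes above 0 (6399). TBH P4 replicate 3 had a share of 23.5%, against 33.5% and 35.1% in the other TBH samples at P4, and 7485 genes above 0, against 6626 and 6687. On both measures WT P2 replicate 1 lay beyond TBH P4 replicate 3, at 22.4% and 7772 genes above 0. WT P2 replicate 2 and TBH P4 replicate 3 are called below the libraries that stand apart. These measures alone do not single out that pair. Values of CBZ and C/EBP that moved most with the pair are also given without it. A search by name for germ line markers met 4 genes. The Vasa intronic protein gene VIG, met through the word Vasa and not vasa itself, ranged from 1583 to 2335 over the 12 samples. SIWI, NANOSO and AGO1 were listed at 0 in all of them, so no germ line level is read from this list. A listed 0 can be a failed estimate, since 432 genes were at 0 in a sample and above 20 in another, and it is not read here as absence.

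VMP23 rose from P2 to P4 in both lines, with no sample of one stage near those of the other. In WT ovaries at P2 it stood at 9.69, 13.35 and 8.99, and in TBH ovaries at P2 at 3.16, 6.53 and 4.92. At P4 it stood at 534, 1210 and 608 in WT and at 504, 401 and 442 in TBH. Every P4 sample lay far above every P2 sample of either line, and the highest value was that of WT P4 replicate 2. The ratio of the group means was 73.5 in WT and 92.1 in TBH. A separation upward from P2 to P4 was seen in 4.41% of tested genes in WT and 4.64% in TBH. In RNA of whole ovaries, more cells that express a gene and more RNA per cell cannot be told apart.

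**Figure D1:**
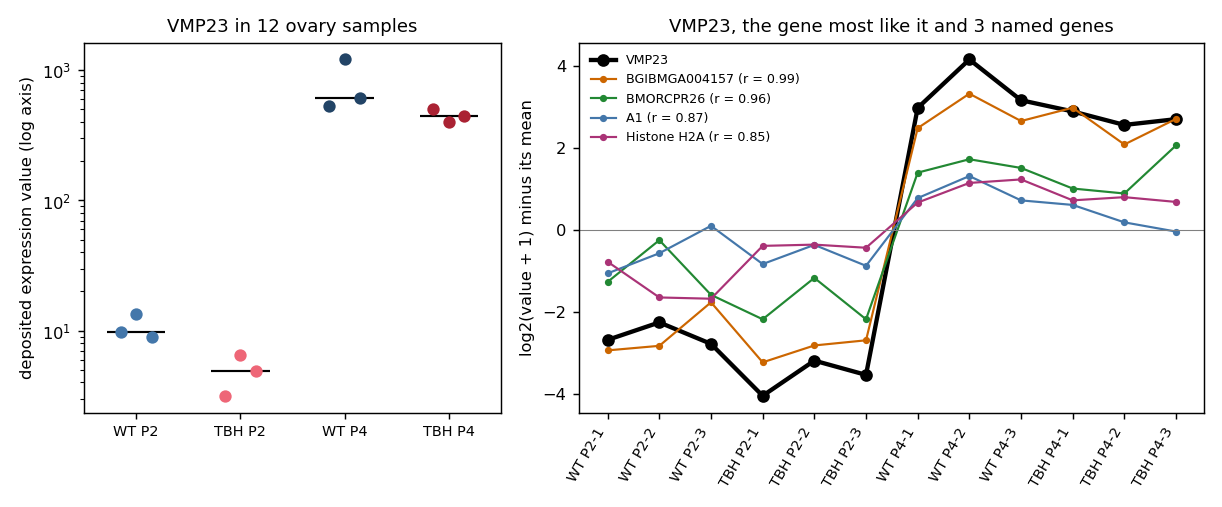
Left, the deposited expression value of VMP23 (log axis) in the 3 samples of each group, drawn in the order of their numbers, with a line at the group median; right, log2(value + 1) minus its mean over the 12 samples for VMP23, the gene with the highest Pearson correlation to it and the 3 closest named genes (r in the legend). The P4 samples of VMP23 sit between 401 and 1210 and the P2 samples between 3.16 and 13.35.

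The tests were made on log2(value + 1) with limma, a linear model fitted to all 12 samples for the 5235 genes that reached 1 in 3 or more samples, and p-values were adjusted over these genes after Benjamini and Hochberg. All 3 genes passed this filter, VMP23 with 12 samples at 1 or more, CBZ with 9 and C/EBP with 7. The log2 values of all genes shifted between the stages, by a median of -0.42 in WT and -0.21 in TBH. VMP23 changed by a log2 of 5.99 ± 0.33 (SE) in WT, which is 6.42 above that median (limma adjusted p = 1.7e-06). In TBH it changed by 6.29 ± 0.33, or 6.51 above the median (limma adjusted p = 1.5e-06). Of all tested genes, 4.11% were called in WT, 1.01% as higher and 3.09% as lower at P4, and 1.7% in TBH, 0.363% as higher and 1.34% as lower. By size, the VMP23 change ranked 3 of 5235 in WT and 2 of 5235 in TBH.

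Genes called higher at P4 in both lines numbered 9, or 0.172% of those tested, with VMP23 among them. Of the other 8, 7 carry neither a name nor a product in the table. The named one was BMORCPR26 (BGIBMGA000343), a putative cuticle protein, with log2 changes of 2.57 in WT and 3.16 in TBH.

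No difference in the rise of VMP23 between TBH and WT was detected. The line effect differed between the stages by a log2 of 0.30 ± 0.46 (SE), with a 95% interval of -0.71 to 1.32 (limma adjusted p = 1.0). This interval leaves room for a difference of more than 2-fold in favour of TBH. With quantile normalization the estimate was -0.03. Of all tested genes, 0.287% were called for this difference.

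Between the lines, VMP23 was listed lower in TBH at each stage. At P2 the means were 4.87 ± 1.69 in TBH and 10.7 ± 2.34 in WT (SD, n = 3 each), and at P4 they were 449 ± 51.8 and 784 ± 371. The 3 TBH samples lay below the 3 WT samples at P2 and again at P4, with no overlap. Such a separation downward was seen in 4.16% of tested genes at P2, in 6.72% at P4 and in 1.24% at both stages, and upward in 4.76% at P2 and 2.22% at both. The log2 difference was -1.02 ± 0.33 (SE) at P2 (limma adjusted p = 0.312) and -0.71 ± 0.33 at P4 (adjusted p = 0.433). Neither passed the threshold of 0.05, which 1.49% of tested genes passed at P2 (0.821% higher and 0.669% lower in TBH) and 1.93% at P4 (1.13% higher and 0.802% lower).

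Averaged over the stages, VMP23 differed between the lines by a log2 of -0.86 ± 0.23, with a 95% interval of -1.37 to -0.36 (limma adjusted p = 0.078). It did not pass, while 3.25% of tested genes did, 1.97% as higher and 1.28% as lower in TBH. The difference at P4 leaned on WT P4 replicate 2, without which it was -0.35 (adjusted p = 0.916). The order of the 4 groups by their means was TBH P2, WT P2, TBH P4 and WT P4, and the neighbours of the same stage did not differ past the threshold.

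**Figure D2:**
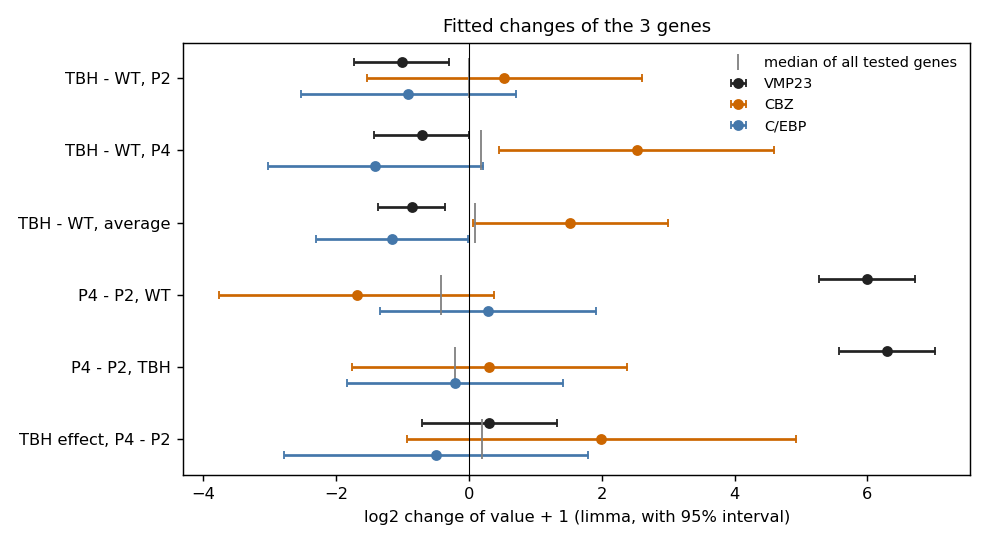
Log2 change of value + 1 for VMP23, CBZ and C/EBP in 6 comparisons, as fitted by limma to 12 samples, with 95% intervals; grey ticks mark the median change of all tested genes and the black line marks 0. The 2 stage changes of VMP23, at 5.99 and 6.29, stand apart from every other value.

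Other eggshell genes of the table were near 0 at both stages. VMP90 (BGIBMGA006756), a further vitelline membrane protein, was above 0 in 2 of 12 samples and reached 0.12. VMP25 (BGIBMGA006587), another vitelline membrane protein, was above 0 in 3 samples and reached 0.37. The chorion gene 5H4 (BGIBMGA009722), which codes for a chorion protein of class CB, was above 0 in 3 samples and reached 0.62. None of these 3 passed the filter on low values, so of the 4 eggshell genes listed VMP23 alone was tested. It was the 1 called higher in each line from P2 to P4.

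By group mean, CBZ was lowest in WT ovaries at P4, and it varied widely within every group. At P2 it stood at 15.80, 0 and 10.56 in WT and at 11.35, 8.85 and 3.82 in TBH. At P4 the WT samples stood at 0.03, 0.51 and 2.72 and the TBH samples at 5.93, 7.49 and 17.79. The TBH samples at P4 all lay above the WT samples at P4, while the lines overlapped at P2. A separation upward at P4 was seen in 14% of tested genes, so it sets CBZ little apart.

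The log2 difference of CBZ between TBH and WT at P4 was 2.53 ± 0.94 (SE), or 2.35 above the median shift of 0.18, with a 95% interval of 0.45 to 4.60. It did not pass over all genes (limma adjusted p = 0.274). With a pseudocount of 0.1 in place of 1 it was 3.95 (adjusted p = 0.388), and without TBH P4 replicate 3 it was 2.10 (adjusted p = 0.625). At P2 the difference was 0.53 ± 0.94 (adjusted p = 1.0), and it turned to -0.74 without WT P2 replicate 2, the sample listed at 0 (adjusted p = 0.659). Averaged over the stages, CBZ differed by 1.53 ± 0.67 (limma adjusted p = 0.352), and by 0.68 without both libraries that stand apart (adjusted p = 0.405). The difference of the line effect between the stages was 1.99 ± 1.34, with an interval of -0.94 to 4.92 (limma adjusted p = 1.0). It was 3.26 without WT P2 replicate 2 (adjusted p = 0.232) and 1.23 without WT P2 replicate 1 (adjusted p = 0.999).

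From P2 to P4, CBZ changed by a log2 of -1.69 ± 0.94 in WT (limma adjusted p = 0.308) and 0.30 ± 0.94 in TBH (adjusted p = 0.952). Neither passed over all 12 samples. Without WT P2 replicate 2 the WT change was -2.96 and passed (adjusted p = 0.024), and so it did without both this library and TBH P4 replicate 3 (-2.96, adjusted p = 0.013), an alternative added after the data were seen. In these refits 520 of 5151 and 1190 of 5001 genes were called, against 215 of 5235 over all samples, so the call sets CBZ little apart. All genes shifted in the same direction there, by a median of -0.65 and -0.66. In WT at P2, the ribosomal protein share of the libraries with CBZ at 15.80, 0 and 10.56 was 22.4%, 36.8% and 26.2%. In TBH at P4 it was 33.5%, 35.1% and 23.5% beside CBZ at 5.93, 7.49 and 17.79. In WT at P4 the share was 32.6%, 33.0% and 35.1% beside CBZ at 0.03, 0.51 and 2.72. In TBH at P2 it was 29.98%, 30.11% and 31.65% beside CBZ at 11.35, 8.85 and 3.82. The part of this share in the CBZ values was not tested.

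C/EBP was low in every group and lower in most TBH samples. The WT samples stood at 5.61, 0 and 4.12 at P2 and at 5.67, 1.22 and 3.14 at P4. The TBH samples stood at 1.28, 0.23 and 0.81 at P2, and at P4 replicates 1 and 2 were listed at 0 and replicate 3 at 2.27. The lines overlapped at both stages. At P2, WT P2 replicate 2 lay below the TBH samples. At P4, TBH P4 replicate 3 (2.27) lay above WT P4 replicate 2 (1.22), so that overlap took a sample of each line. WT P2 replicate 2 and TBH P4 replicate 3 are the 2 libraries treated here as standing apart, and WT P4 replicate 2 is not among them.

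The log2 difference of C/EBP between TBH and WT was -0.91 ± 0.74 (SE) at P2 (limma adjusted p = 1.0) and -1.41 ± 0.74 at P4 (adjusted p = 0.544). At P2 it ranged from -1.76 without WT P2 replicate 2 (adjusted p = 0.257) to -0.40 without WT P2 replicate 1 (adjusted p = 0.935), and at P4 it was -1.98 without TBH P4 replicate 3 (adjusted p = 0.384). Averaged over the stages the C/EBP difference was -1.16 ± 0.52, with a 95% interval of -2.31 to -0.01 (limma adjusted p = 0.368). Without the 2 libraries that stand apart the average was -1.87 and passed (adjusted p = 0.018), again in an alternative added after the data were seen, in which 255 of 5001 genes were called. Without WT P2 replicate 1, the sample with the lowest ribosomal share, the average was -0.90 and did not pass (adjusted p = 0.429). With a pseudocount of 0.1 the difference at P4 was -3.34 and the average -2.09, and neither passed (adjusted p = 0.483 and 0.528). Between the stages, C/EBP changed by 0.29 ± 0.74 in WT and -0.21 ± 0.74 in TBH (limma adjusted p = 0.856 and 0.959), and the sign of each turned when single libraries were left out.

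**Figure D3:**
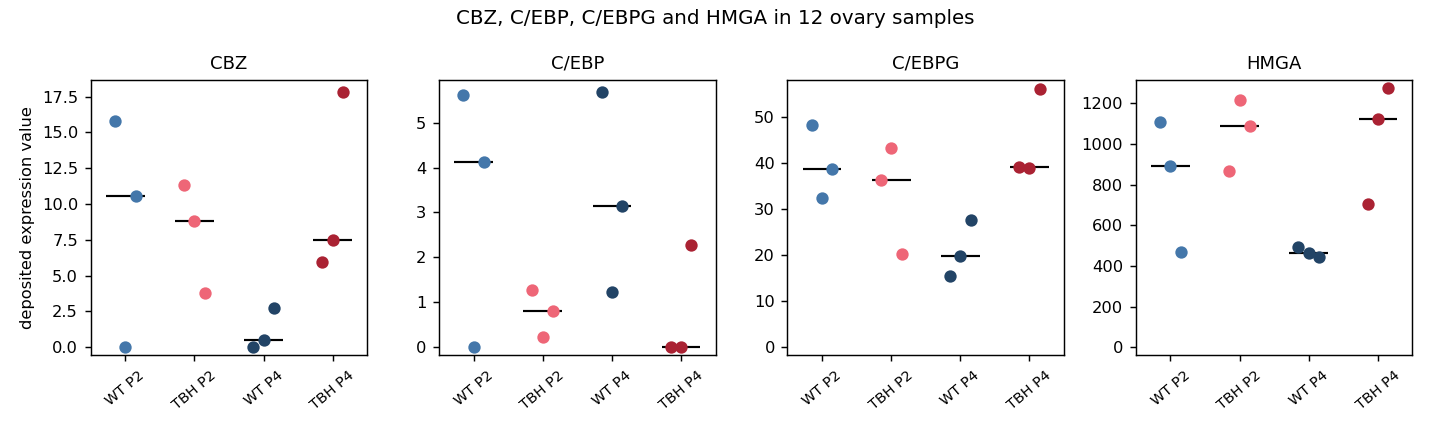
Deposited expression values of CBZ, C/EBP, C/EBPG and HMGA (linear axes with their own scales) in the 3 samples of each group, drawn in the order of their numbers, with a line at the group median. In CBZ, C/EBPG and HMGA all TBH samples at P4 lie above all WT samples at P4, which are 0.03 to 2.72, 15.6 to 27.6 and 444.5 to 494.6.

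The list of chorion regulators also held C/EBPG and HMGA. C/EBPG (BGIBMGA004336), described as an ovary C/EBPg transcription factor and so a b-ZIP relative of C/EBP, stood at 15.6, 19.8 and 27.6 in WT at P4 and at 39.0, 38.8 and 56.0 in TBH. At P2 the lines overlapped, with 48.2, 32.3 and 38.6 in WT and 36.3, 43.3 and 20.2 in TBH. HMGA (BGIBMGA004695) stood at 495, 461 and 444.5 in WT at P4 and at 704, 1121 and 1274 in TBH. At P2 it stood at 1108, 892 and 468 in WT and at 865, 1215 and 1088 in TBH.

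At P4, the 3 WT samples were thus below the 3 TBH samples for CBZ, C/EBPG and HMGA, and not for C/EBP, a separation that 14% of all tested genes had. The log2 difference was 1.07 ± 0.33 (SE) for C/EBPG (limma adjusted p = 0.155) and 1.10 ± 0.31 for HMGA (adjusted p = 0.118). In WT from P2 to P4, C/EBPG changed by -0.91 ± 0.33 (limma adjusted p = 0.135) and HMGA by -0.73 ± 0.31 (adjusted p = 0.200). Relative to the median of all genes these were -0.485 and -0.31, and with quantile normalization -0.32 and -0.44. The HMGA change was -1.09 and passed without WT P2 replicate 3 (adjusted p = 0.037). In that refit 325 of 5096 genes were called, against 215 of 5235 over all samples. A separation downward from P2 to P4 in WT, as C/EBPG had, was seen in 21.5% of tested genes. Of the 4 regulators, 0 passed in any of the 6 comparisons over all samples by limma. At P4, 3 of them (CBZ, C/EBPG and HMGA) differed between the lines by the unadjusted threshold of 0.05, as did 614 of all tested genes. Over all 4 regulators, C/EBP included, the median log2 difference between TBH and WT was 1.09 at P4, beside 0.18 over all tested genes, and 0.07 at P2, beside -0.01.

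Further b-ZIP and ecdysone genes gave few values to compare. The b-ZIP gene Creb (BGIBMGA006865) reached 1.66, Atf2 (BGIBMGA001375) was listed at 0 in all 12 samples, and neither was tested. USP (BGIBMGA006183), the partner of the ecdysone receptor, reached 5.29 and did not pass in any comparison (limma adjusted p from 0.455 to 1.0). The nuclear receptor gene HR38 (BGIBMGA002964) reached 1.05 and was not tested. VG (BGIBMGA004585), the gene of the yolk precursor vitellogenin, had the reverse course to VMP23 in WT. It fell from 43.3, 47.3 and 98.0 at P2 to 2.06, 10.93 and 2.10 at P4 (log2 change -3.62 ± 0.54, SE, limma adjusted p = 0.002). It was also lower in TBH than in WT at P2 (log2 difference -3.54 ± 0.54, limma adjusted p = 0.007). Averaged over the stages, the VG difference was -1.93 ± 0.38 (SE, limma adjusted p = 0.017). In TBH, VG stood at 5.22, 4.50 and 2.92 at P2 and at 1.91, 3.53 and 3.36 at P4, a change that did not pass (adjusted p = 0.855). At P4 the VG difference between the lines did not pass (-0.33 ± 0.54, SE, limma adjusted p = 0.923). Nor did the difference of its line effect between the stages (3.22 ± 0.765, SE, limma adjusted p = 0.209).

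The summed levels of some marker lists of other tissues differed between the stages without overlap, and those of others overlapped, with no list tested. Of 5 muscle genes, 4 were above 0 in some sample and tropomyosin-1 was at 0 in all. Their summed level ran from 350 to 726 in WT at P2, 457 to 615 in TBH at P2, 1473 to 2074 in WT at P4 and 721 to 1201 in TBH at P4. Of 20 fat body and hemolymph genes, VG included, all were above 0 in some sample, and their sum ran from 284 to 334 in WT at P2, 151 to 310 in TBH at P2, 98.2 to 167 in WT at P4 and 128 to 245 in TBH at P4. The 181 cuticle and trachea genes, 162 of them above 0 in some sample, summed to 5394 to 17142 in WT at P2, 7939 to 8804 in TBH at P2, 1879 to 4186 in WT at P4 and 1679 to 3070 in TBH at P4. Nervous system genes, 12 of 14 above 0 in some sample, summed to 612.5 to 1664 in WT at P2 and 914 to 1097 in TBH at P2, but to 3.44 to 19.5 in WT at P4 and 1.67 to 8.24 in TBH at P4. Of 3 hemocyte genes, 2 were above 0 in some sample, and their sum was 23.2 to 54.9 in WT at P2, 44.6 to 65.0 in TBH at P2, 40.2 to 44.6 in WT at P4 and 21.4 to 25.2 in TBH at P4. This sum was nearly that of PRO-PO2 (BGIBMGA013115) alone, since PPO1 reached 0.26 and hemocytin was at 0 in all samples. The sums of the 5 silk gland genes overlapped between the stages, at 163 to 375 in WT and 197 to 308.5 in TBH at P2. At P4 they were 191 to 301 in WT and 285 to 404 in TBH. The gene BCP (BGIBMGA011342) alone ran from 121.5 to 362.7 and FMBP-1 from 14.1 to 44.6. The silk genes themselves were low, with fibroin heavy chain reaching 1.03, FIBL 1.5 and P25 3.41. The part of these tissues in the values of VMP23, CBZ and C/EBP was not tested.

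The genes most like VMP23 were ranked by Pearson's r of log2(value + 1) over the 12 samples, among 4631 genes with a mean of at least 1. These correlations are descriptions, since the 12 points share libraries and the 2 stages set most of the spread. Closest was BGIBMGA004157 (r = 0.987), which has no name or product in the table. It stood at 974, 1052 and 2193 in WT at P2 and at 41444, 74091 and 46708 in WT at P4. In TBH it stood at 796, 1058 and 1154.5 at P2 and at 58466, 31456 and 48414 at P4. All P4 samples lay above all P2 samples, and the change passed in WT (log2 5.32 ± 0.35, SE, limma adjusted p = 5.9e-06) and in TBH (5.49 ± 0.35, adjusted p = 6.0e-06). Since the gene was picked for its likeness to VMP23 over these samples, its stage change is no separate support for that of VMP23.

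Among genes with a name, BMORCPR26 came next (r = 0.962), at 0 to 2.80 in the P2 samples and 7.35 to 17.79 in the P4 samples. It was followed by the muscle-type actin A1 (BGIBMGA013945, r = 0.869), a histone H2A gene (BGIBMGA009649, r = 0.853), a mitochondrial aldehyde dehydrogenase (BGIBMGA010403, r = 0.814) and the carboxylesterase ae27 (BGIBMGA001841, r = 0.810). Histone genes come in near-identical copies that can share reads, so the level of that gene is uncertain.

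CBZ was most like the unnamed BGIBMGA008719 (r = 0.936). Named genes close to it were glucose-6-phosphate isomerase (BGIBMGA004221, r = 0.925), an enzyme of glycolysis, the death-related protein DRP (BGIBMGA004343, r = 0.912), methionine aminopeptidase 2 (BGIBMGA009963, r = 0.902) and the cytochrome P450 gene CYP340 (BGIBMGA001894, r = 0.879). Methionine aminopeptidase 2 stood at 15.4 in WT P2 replicate 2, against 76.9 and 56.9 in the other WT samples at P2. It was picked for its likeness to CBZ over these same samples, so its low value there is no separate result.

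C/EBP was most like BGIBMGA009563 (r = 0.897), which has no name. The named genes closest to it were the beta subunit of the chaperonin CCT (BGIBMGA001206, r = 0.811), inorganic pyrophosphatase (BGIBMGA007988, r = 0.798), a ubiquitin carboxyl-terminal hydrolase (BGIBMGA006669, r = 0.793), lactate dehydrogenase LDH (BGIBMGA012336, r = 0.788) and the kinase subunit gene PI3K60 (BGIBMGA010561, r = 0.785). The 6 TBH samples and WT P2 replicate 2 had inorganic pyrophosphatase listed at 0. It stood at 35.5 and 11.5 in WT P2 replicates 1 and 3, and the WT P4 samples had 29.1, 18.6 and 5.05.

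Among themselves, the 3 genes had little in common over the 12 samples. The correlation was -0.328 between VMP23 and CBZ, 0.038 between VMP23 and C/EBP and 0.091 between CBZ and C/EBP. CBZ and C/EBPG correlated at 0.804, and C/EBP and C/EBPG at -0.149.

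**Figure D4:**
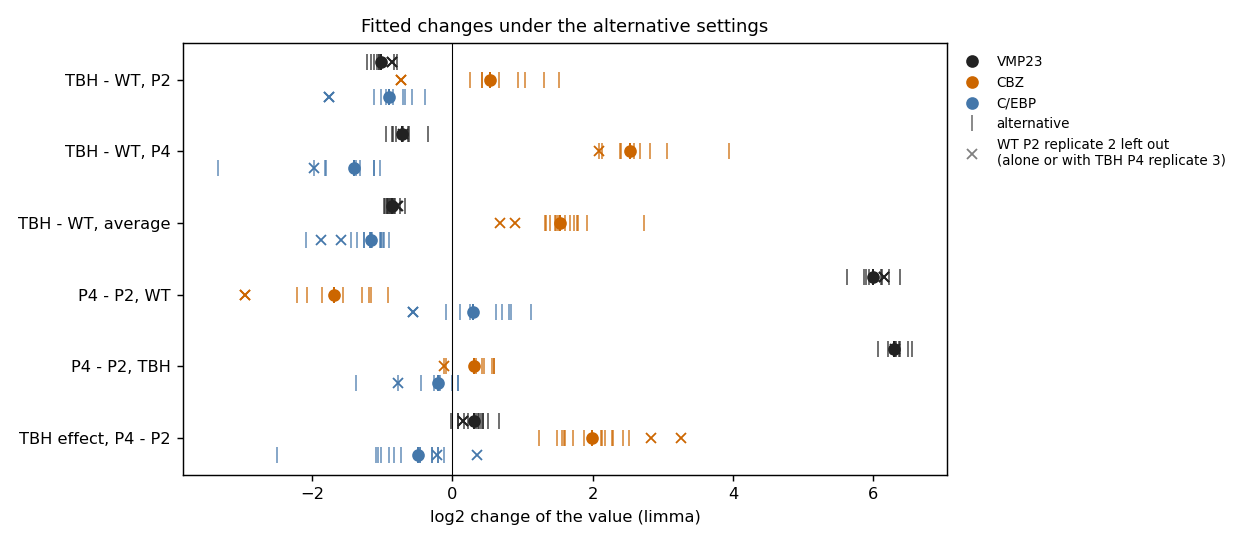
Log2 change of VMP23, CBZ and C/EBP in 6 comparisons as reported (circles) and under each alternative setting (ticks), with crosses where WT P2 replicate 2 was left out alone or with TBH P4 replicate 3. VMP23 stays between 5.63 and 6.39 for the stage change in WT, while CBZ at P2 goes from 0.53 to -0.74 without that library.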

How the data were processed

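Total RNA of 12 ovary samples was sequenced on an Illumina instrument, per the labels' protocols. The authors deposited 1 normalized signal value for each gene and sample, to 2 decimals and without a unit, and 4 columns of group means. These means equal the mean of their samples within 3.33e-06. The submitters' processing notes name Cufflinks and DESeq2 without a role or version. Aligner, genome build and annotation: not given in the sources used here. No gene ID (0) matched the reference table of names, so names and products come from the deposited table, and no coordinates or sequences are given.

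Groups follow the titles. The design foresaw edgeR for counts, and since the values are normalized, limma 3.58.1 in R 4.3.3 was used (lmFit, contrasts.fit, eBayes with trend) on log2(value + 1), without further scaling, over all 12 samples. Changes of low values look smaller on this scale. The threshold was an adjusted p of 0.05. The fit was also run on simulated data, with independent noise for each gene and no differences between libraries. That run cannot speak for library differences of the kind seen here. The labels do not say whether replicate numbers pair the samples, and the main fit did not pair them. Deviations of same-numbered samples from their group means correlated at -0.176 to 0.239, above 0.1 in 1 of 18 pairs. With 3 samples a group such correlations cannot settle whether samples shared a batch.

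The 3 genes and all lists were chosen with earlier results of these data known. Lists were matched by name and product; HMG-CoA synthase, an enzyme met by the HMG pattern, was left out of the regulators. Besides the 3 genes, the text names list members past the threshold or with the 3 highest means and, for each gene, the 5 named genes and the 1 unnamed gene most like it, except 1 gene like CBZ that is not reported here. Other low list members were named after their values were seen. Alternatives were quantile normalization, equal totals, other filters, a pseudocount of 0.1, no trend, a fit to the compared groups alone, a replicate block and each sample left out.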

Additional observations from a re-analysis of the deposited data

How the results depend on the processing

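Over 287 refits of the 18 comparisons of VMP23, CBZ and C/EBP, 272 kept direction and side of the threshold, 12 turned the direction and 3 newly passed. The stage change of VMP23 passed in all, at 5.63 to 6.39 in WT and 6.07 to 6.55 in TBH. Quantile normalization turned its difference of line effects to -0.025. With 1 sample left out, CBZ ranged from -0.736 to 1.30 for TBH against WT at P2, from -2.96 to -0.92 for the stage change in WT and from -0.126 to 0.594 in TBH. C/EBP ranged from -0.561 to 0.80 for the stage change in WT, from -0.781 to 0.073 in TBH and from -1.07 to 0.35 for the difference of line effects. With the 2 libraries that stand apart left out together, CBZ was at -0.736 for TBH against WT at P2, -2.96 for the stage change in WT and -0.126 in TBH, and C/EBP at -0.561 for the stage change in WT and -1.87 for TBH against WT averaged over the stages. The cause was not tested. CBZ and C/EBP have no value under a mean of at least 10, and C/EBP none in a fit to the TBH groups alone, where it did not pass the filter. The replicate block changed no call of the 3 genes (VMP23 averaged over the stages -0.86, adjusted p = 0.073), and 2 of 12 samples correlated best with a sample of their own number. It moved the genes called for P4 against P2 in WT from 215 to 141. Over all alternatives the genes called ranged from 27 to 137 (78 as reported) for TBH against WT at P2, 51 to 173 (101) at P4, 73 to 255 (170) averaged, 108 to 1190 (215) for the stage change in WT, 54 to 174 (89) in TBH and 4 to 20 (15) for the difference. The vitellogenin difference averaged over the stages ended in 1 of 20 alternatives (adjusted p = 0.051). Of the 5 named genes most like each gene, 3 to 5 stayed for VMP23 and 1 to 5 for CBZ and for C/EBP. Depth is unknown, so the precision of values near 0 cannot be given.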

Other observations

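BGIBMGA004157, the unnamed gene most like VMP23, held the highest listed value in all 6 samples at P4. It took 5.54% to 12.2% of the sum of listed values there and 0.145% to 0.468% at P2. The ratio of its group means from P2 to P4 was 38.5 in WT and 46.0 in TBH. Between the lines it did not pass (limma adjusted p = 1.0 at P2, log2 difference -0.40 ± 0.35, SE, and adjusted p = 0.909 at P4, -0.23 ± 0.35). Another unnamed gene called higher at P4 in both lines was BGIBMGA006757, with log2 changes of 1.90 in WT and 2.82 in TBH, which was singled out after its values were seen.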
